A study of Equus caballus with 22 samples.

Results

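IFI27, EIF2AK2, OAS2 and MX1 are genes that cells switch on in response to interferon, and their transcripts were followed here in horse endometrium, the inner lining of the uterus, in early pregnancy. The members were chosen by name: every probe of the array that is not a control and carries the RefSeq transcript of one of these 4 genes was taken. That gave 12 probes of 43603 probes in all, namely 1 for IFI27, 3 for EIF2AK2, 6 for OAS2 and 2 for MX1, and 4 genes of the 675 that could be named from the array's annotation. Probes of one gene share a target transcript and are repeat readings of it, not separate genes.

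The study asked how the endometrium of the mare differs between early pregnancy and the matching stage of the cycle. Biopsies came from warmblood mares and were read on 1-colour Agilent horse arrays, 1 array per biopsy and 22 in all. At day 12 there were 6 mares, each with an array from a pregnant stage, sampled once the embryo had been recovered, and a control array from a stage without pregnancy. At day 8 there were 5 mares (numbers 1, 2, 4, 5 and 6) with the same 2 kinds of array. All groups were untreated and no age is given for the mares, and the labels do not say whether a mare number stands for the same animal on both days. The pregnant arrays describe endometrium after the embryo had been removed.

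Interferons are secreted proteins that bind receptors on the cell surface and, through kinases and transcription factors inside the cell, turn on a broad set of genes that restrict viruses. In ruminants the early conceptus itself secretes an interferon, interferon tau, which is the signal by which the mother recognises pregnancy, and classic interferon-induced genes rise in the endometrium. The equine conceptus is not known to use interferon tau for this purpose, and the maternal recognition signal of the horse remains unknown. IFI27 encodes a small hydrophobic protein of mitochondrial and nuclear membranes, EIF2AK2 encodes PKR, a kinase that halts translation when it binds double-stranded RNA, OAS2 makes short adenylate chains when it binds double-stranded RNA, and MX1 encodes a GTPase that traps viral nucleocapsids.

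Levels are given as log2 intensity minus the 75th percentile of the same array, so that 0 is the brightness that 25% of an array's spots exceed. The share of spots well above background, which stands in for sensitivity, ranged from 74.2% to 92.9% over the 22 arrays, and the 75th percentile intensity from 577 to 1863. All 12 probes were well above background on all 22 arrays, and no spot on any array was saturated. Epithelial and stromal transcripts, the 2 main compartments of endometrium, were present on every array: ESRP1, a splicing regulator of epithelial cells, and DCN and LUM, matrix proteoglycans of stroma, were well above background on all 22. Biopsies are bulk tissue, so fewer cells of a type and less RNA per cell cannot be told apart. Each slide and each scan day held arrays of 1 day alone, so that day and batch cannot be told apart in any comparison of day 12 with day 8. The 4 arrays of day 12 on slide 4, from mares 4 and 6, had the lowest 75th percentiles of that day, 636 to 744 against 1128 to 1863 on the other 8, and the lowest shares of spots well above background, 74.2% to 78.2% against 82.0% to 92.9%.

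At day 12 the 4 genes stood higher in the pregnant than in the control arrays of most mares, by 0.31 to 0.49 log2, and none of them passed the test over all probes. In limma's test with the mare as a block, 0 of the 12 probes had an adjusted p under 0.05, where 0.265% of the 38461 probes tested did. All 12 estimates were above 0, between 0.30 and 0.52 with a median of 0.40, while 45.9% of all probes were above 0 and their median was -0.02. At an unadjusted p under 0.05 there were 4 of the 12, against 12.5% of all probes. The 4 were the probe of IFI27 and the 3 probes of EIF2AK2, which are repeat readings of 1 gene.

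IFI27 was read by a single probe. In the control arrays of day 12 it stood at 2.36, 3.16, 2.70, 2.03, 3.89 and 2.81 in mares 1 to 6, and in the pregnant arrays at 3.14, 3.58, 2.58, 2.84, 4.71 and 3.01. The pregnant array was the higher in every mare but mare 3, and the groups overlapped over most of their range because mares differed more from each other (SD 0.65 and 0.76) than the stages did. The difference was 0.49 ± 0.16 (SE, n = 6 mares, 95% interval 0.13 to 0.84, adjusted p = 0.249), and an exact sign-flip permutation test over the 6 mares, two-sided, gave p = 0.0625, where 0.03125 is the smallest it can give.

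EIF2AK2, whose brightest probe is taken as its lead probe, stood at -1.67, -1.62, -0.70, -3.35, -0.68 and -2.68 in the control arrays of day 12. The pregnant arrays stood at -0.97, -0.78, -0.63, -2.24, -0.62 and -2.77. Mares 1, 2 and 4 differed by 0.70, 0.84 and 1.11, while mares 3, 5 and 6 differed by 0.07, 0.06 and -0.09. In this probe the difference of the group thus came from mares 1, 2 and 4. The fitted difference was 0.45 ± 0.17 (SE, adjusted p = 0.313; exact sign-flip p = 0.125). The other probes of EIF2AK2 gave 0.52 ± 0.16 and 0.44 ± 0.20, the former with the smallest adjusted p of the 12 probes, 0.203. That probe was higher in 6 of 6 mares (2.25% of all probes were), by 0.03, 0.33 and 0.77 in mares 3, 5 and 6. The latter probe differed by 0.11, 0.12 and -0.34 in those mares. At day 12 the level of EIF2AK2 was lowest in mares 4 and 6, the mares of slide 4, whose arrays were also the dimmest of that day. Slide 4 also had a scan day of its own. At day 8 the dimmest arrays, pregnant and control of mare 1 (75th percentiles 633 and 577), had the highest EIF2AK2 levels of that day, -1.88 and -2.06. Without the 4 arrays of slide 4 the difference was 0.42 ± 0.18 (adjusted p = 0.820), an alternative chosen after seeing the data.

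OAS2 stood at -0.34, -0.21, 0.49, -0.23, 0.61 and -0.08 in the control arrays of day 12 and at -0.14, 1.13, 0.07, 0.34, 1.00 and 0.24 in the pregnant arrays. Mare 2 had by far the largest difference, 1.34, and mare 3 was the only one in which the pregnant array was lower, by -0.42. The fitted difference of the lead probe was 0.40 ± 0.19 (SE, adjusted p = 0.428; exact sign-flip p = 0.156), and the 6 probes ranged narrowly from 0.37 to 0.41. Without mare 2 the difference was 0.21.

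MX1 stood at 2.53, 2.28, 3.60, 2.31, 3.59 and 2.98 in the control arrays of day 12 and at 2.75, 3.25, 3.33, 2.61, 3.94 and 3.29 in the pregnant arrays. As for OAS2, mare 2 showed the largest difference (0.97) and mare 3 the only negative one (-0.27), and the other mares lay between 0.22 and 0.35. The fitted difference was 0.31 ± 0.16 (SE, adjusted p = 0.454; exact sign-flip p = 0.0938), and 0.18 without mare 2. Its second probe gave 0.30 ± 0.19 from 5 mares, because outlier spots removed both arrays of mare 5.

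**Figure D1:**
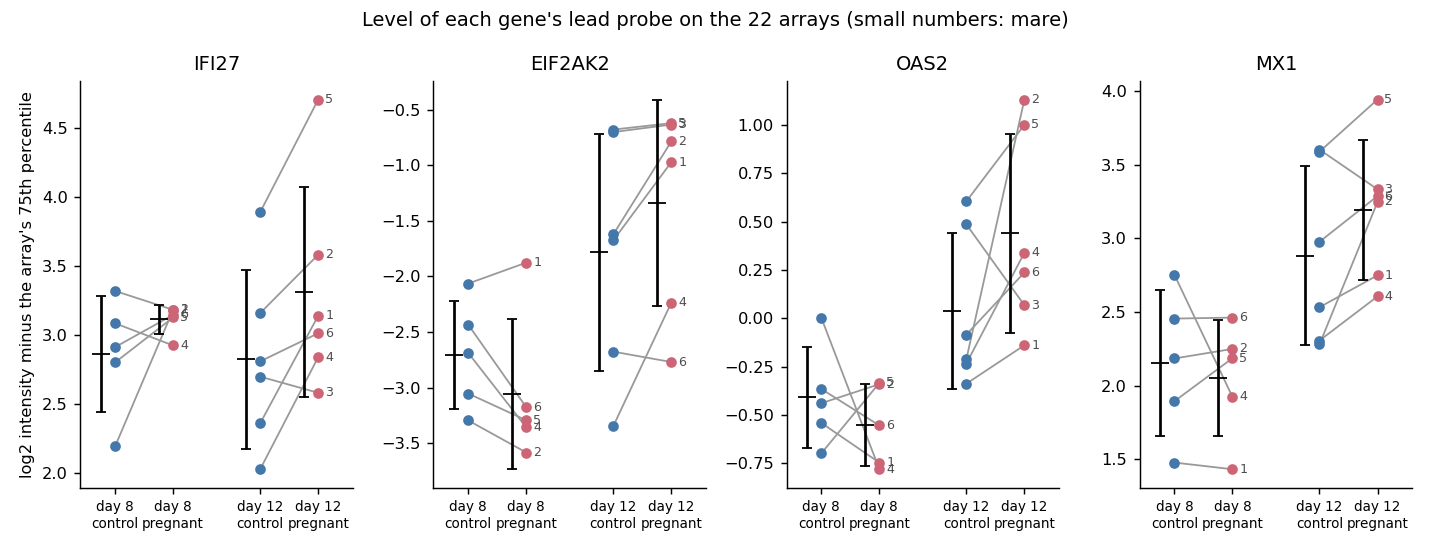
Levels of IFI27, EIF2AK2, OAS2 and MX1 (lead probe, log2 intensity minus the 75th percentile of the array) in the 4 groups, with grey lines joining the control and pregnant array of 1 mare, and black bars for the group mean and SD. At day 12 the line rises in 5 of 6 mares for each gene; MX1 and OAS2 of the pregnant day 12 arrays lie above all pregnant day 8 arrays, and EIF2AK2 of mares 4 and 6 lies among the day 8 arrays.

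By its lead probe each of the 4 genes was thus higher in 5 of 6 mares at day 12. Of all probes 14% were higher in at least 5 of 6, so the count by itself is common on this array. The exception was mare 3 for IFI27, OAS2 and MX1 and mare 6 for EIF2AK2, of which another probe was higher in mare 6 as well. Averaged over the 4 genes the difference was 0.47, 0.89, -0.18, 0.70, 0.41 and 0.19 in mares 1 to 6, at the 87.4th, 96.2nd, 26.8th, 90.6th, 92.8th and 66.5th percentile of all probes in the same mare. In mare 5 the pregnant array differed from its control by -8.84 percentage points in the share of spots well above background, and the part of that gap in the values of mare 5 was not tested. By slide, which holds both arrays of a mare, the mean difference of the 4 genes was 0.89 on slide 1 (mare 2), 0.41 on slide 2 (mare 5), 0.15 on slide 3 (mares 1 and 3) and 0.44 on slide 4 (mares 4 and 6). The background correction mattered for the direction against the rest of the array. With the normexp correction the median of all probes at day 12 moved to 0.34, and relative to that median EIF2AK2 was at 0.14 and OAS2 at 0.05, while IFI27 turned to -0.11 and MX1 to -0.23.

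At day 8 no gene passed the test, and the estimates of EIF2AK2, OAS2 and MX1 were below 0. Of the 12 probes 0 passed, as did 0% of the 38457 tested, and at an unadjusted p under 0.05 there was 1 of 12 against 5.83% of all probes. Only the probe of IFI27 had an estimate above 0, where 47.5% of all probes did, and the 11 probes of the other genes lay between -0.46 and -0.10.

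**Figure D2:**
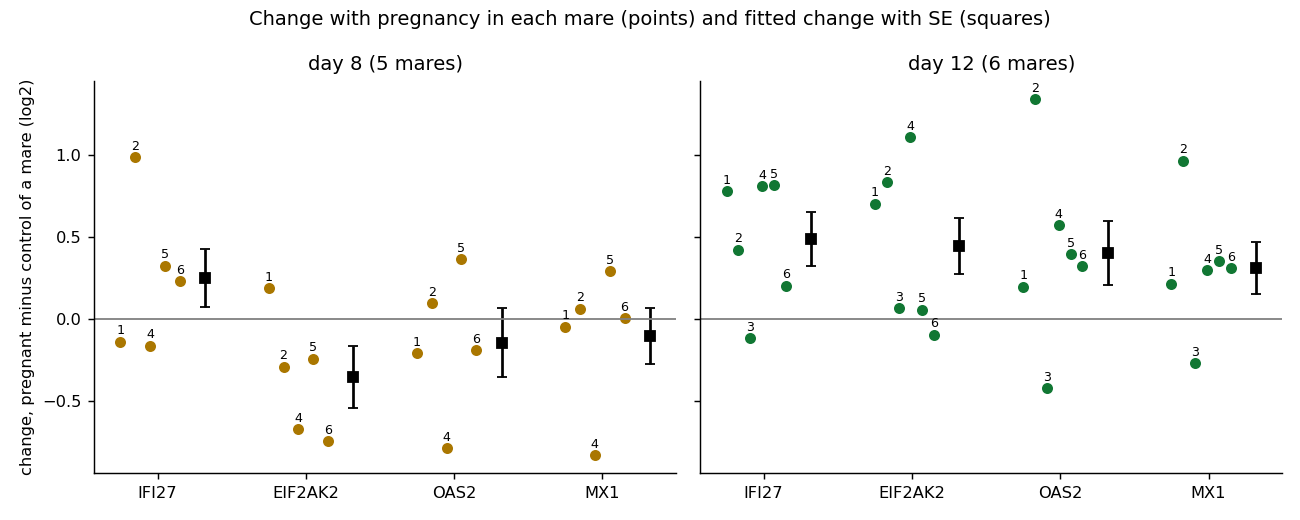
Difference between the pregnant and the control array of each mare (points, numbered by mare, log2) for the 4 genes at day 8 (5 mares) and day 12 (6 mares), with the fitted difference and its SE as black squares. At day 12 all squares lie above 0 with mare 3 lowest for IFI27, OAS2 and MX1; at day 8 mare 4 is the lowest for IFI27, OAS2 and MX1.

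For IFI27 the control arrays of day 8 stood at 3.32, 2.19, 3.09, 2.80 and 2.91 in mares 1, 2, 4, 5 and 6, and the pregnant arrays at 3.18, 3.18, 2.93, 3.13 and 3.15. The pregnant arrays were close together (SD 0.11, against 0.42 in the controls), and the difference of 0.25 ± 0.18 (SE, n = 5 mares, adjusted p = 0.881) owed most to mare 2, at 0.99. EIF2AK2 stood at -2.06, -3.30, -2.69, -3.05 and -2.43 in the controls and at -1.88, -3.58, -3.36, -3.29 and -3.18 in pregnancy, lower in 4 of 5 mares (22.4% of all probes were lower in at least 4 of 5). Its difference was -0.35 ± 0.19 (adjusted p = 0.848, 95% interval -0.76 to 0.06).

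OAS2 stood at -0.54, -0.44, 0.0031, -0.70 and -0.37 in the control arrays of day 8 and at -0.75, -0.34, -0.78, -0.33 and -0.55 in the pregnant arrays, a difference of -0.14 ± 0.21 (adjusted p = 0.957). MX1 stood at 1.48, 2.18, 2.75, 1.89 and 2.45 and at 1.43, 2.25, 1.92, 2.19 and 2.46, a difference of -0.10 ± 0.17 (adjusted p = 0.966). For these lead probes mare 4 had the largest difference, -0.78 for OAS2 and -0.83 for MX1, and without mare 4 the fitted differences were 0.02 and 0.08. The second probe of MX1 was at -0.12 ± 0.21, lower in 2 of the 4 mares in which it was read, so the sign for MX1 depended on that mare. The other 5 probes of OAS2 gave larger values, from -0.46 to -0.29. Of these 5, 4 were lower in all 5 mares (4.25% of all probes were) and 1 in 4 of 5, so their sign did not depend on mare 4, although mare 4 had the largest drop in 4 of them. The mean of the OAS2 probes differed by -0.32 (adjusted p = 0.864). In that mare the pregnant array differed from the control by -4.76 percentage points in the share of spots well above background, and the part of that gap was not tested.

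The difference between the pregnancy effects of the days was tested directly. It was above 0 for all 12 probes, where 50.5% of all probes were, and 0 of the 12 passed, against 0.0104% of the 38457 probes. Among the lead probes EIF2AK2 differed most, by 0.80 ± 0.25 log2 (SE, 95% interval 0.24 to 1.36, adjusted p = 0.329). It was followed by OAS2 at 0.55 ± 0.29 (adjusted p = 0.526), MX1 at 0.41 ± 0.23 (adjusted p = 0.551) and IFI27 at 0.24 ± 0.24 (adjusted p = 0.751). The other probes of OAS2 gave 0.67 to 0.87 and those of EIF2AK2 0.82 and 0.96, so the order of these genes depended on the probe. At an unadjusted p under 0.05 there were 8 of the 12 probes, against 4044 of the 38457 probes. The 8 were the 3 probes of EIF2AK2 and the 5 probes of OAS2 other than its lead probe. They are thus repeat readings of EIF2AK2 and OAS2 alone. This contrast uses the same arrays as the effects of day 12 and day 8 and is no separate evidence for either.

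Set against each other by stage, the pregnant arrays of day 12 and day 8 differed for 3 of the 4 genes. EIF2AK2, OAS2 and MX1 were higher at day 12 with 11 of their 11 probes called, and IFI27 was not. Over all probes 24.3% of 38459 were called in this comparison, 11.1% higher and 13.1% lower, so calls were common. EIF2AK2 was higher by 1.72 ± 0.45 log2 (SE, n = 6 and 5 arrays, 3.30-fold, adjusted p = 0.0183), MX1 by 1.14 ± 0.25 (2.21-fold, adjusted p = 0.00932) and OAS2 by 0.99 ± 0.24 (adjusted p = 0.0128). The other 5 probes of OAS2 were higher by 1.34 to 1.46, with adjusted p from 0.00123 to 0.00222, the other 2 of EIF2AK2 by 1.14 and 1.58, and the second probe of MX1 by 0.76 ± 0.22. IFI27 differed by 0.20 ± 0.32 (95% interval -0.50 to 0.89, adjusted p = 0.676), and by -0.08 without mare 5 of day 12, whose pregnant array had its highest level.

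For MX1 the pregnant arrays of day 12 lay between 2.61 and 3.94 and those of day 8 between 1.43 and 2.46, with no overlap. OAS2 lay between -0.14 and 1.13 at day 12 and between -0.78 and -0.33 at day 8, again apart. All 8 probes of these 2 genes separated the pregnant groups in this way, as did 5.37% of all probes. EIF2AK2 overlapped: 4 pregnant arrays of day 12 stood between -0.97 and -0.62, above every pregnant array of day 8 (-3.58 to -1.88), but the other 2, those of slide 4, stood at -2.24 and -2.77. Leaving out the arrays of slide 4, an alternative chosen after seeing the data, 10 of 12 probes were called and EIF2AK2 was higher by 2.31 ± 0.32 (adjusted p = 0.00194). Those arrays held the lowest EIF2AK2 levels of day 12, so leaving them out had to raise this difference. The share of all probes called in that setting is not given here.

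For EIF2AK2, OAS2 and MX1 the control arrays of day 12 also leaned higher than those of day 8, but 0 of 12 probes passed, where 7.09% of all 38460 probes did and 5 of the 12 had an unadjusted p under 0.05 against 26.4%. The 5 were 4 probes of OAS2 and 1 of MX1. EIF2AK2 was at 0.92 ± 0.47 (adjusted p = 0.234), MX1 at 0.73 ± 0.32 (adjusted p = 0.170), OAS2 at 0.45 ± 0.21 (adjusted p = 0.208) and IFI27 at -0.04 ± 0.32. Without the arrays of slide 4, again chosen after seeing the data, 2 of 12 probes passed, and EIF2AK2 was higher by 1.54 ± 0.32 (adjusted p = 0.0240). Leaving out these low arrays had to raise that difference too. Over all alternatives the calls among all probes between control arrays ran from 31 to 5239. That the pregnant arrays passed and the control arrays did not is not a test of their difference, which is the contrast of the pregnancy effects above, where none passed. The order of the group means was the same for EIF2AK2, OAS2 and MX1: day 12 pregnant, day 12 control, day 8 control, day 8 pregnant. Of the neighbours in that order no pair passed the test for any of the 3 genes. For IFI27 the means lay between 2.83 and 3.31, and no comparison of its groups passed.

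**Figure D3:**
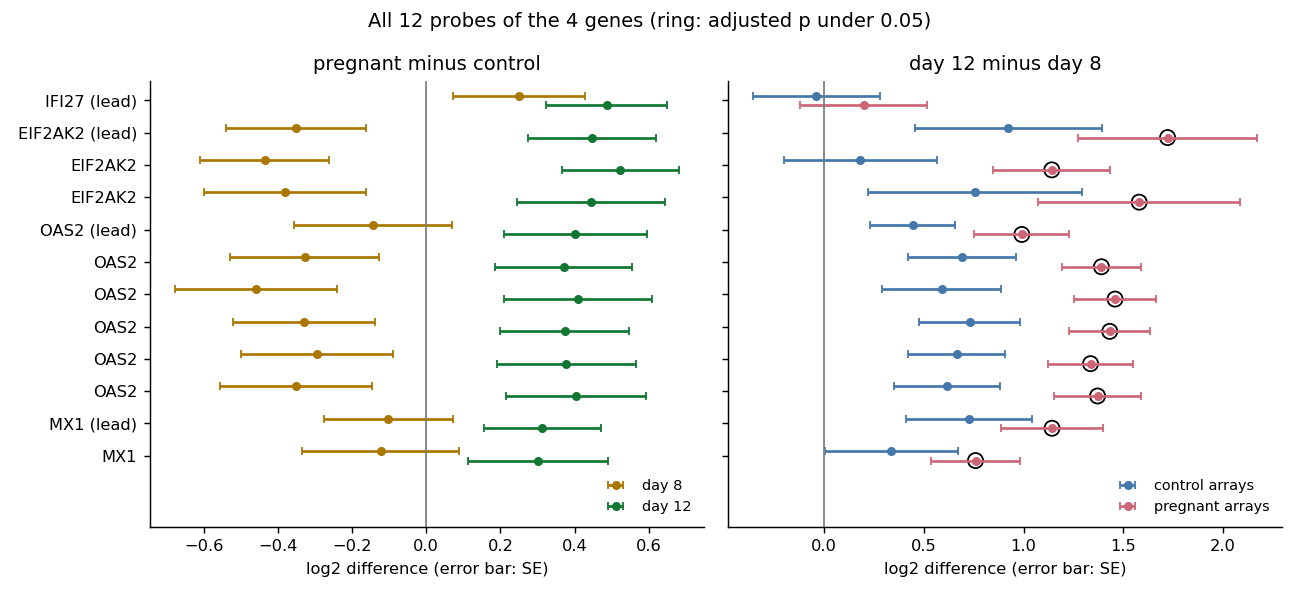
Fitted log2 differences with SE for all 12 probes, pregnant minus control at day 8 and day 12 (left) and day 12 minus day 8 in control and in pregnant arrays (right), with a ring around values with an adjusted p under 0.05. Rings are found only for the 11 pregnant-array values of EIF2AK2, OAS2 and MX1, between 0.76 and 1.72, and in the left panel the lead probe of OAS2 at day 8 (-0.14) lies apart from its other 5 probes (-0.46 to -0.29).

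The call in the pregnant arrays depended on how batch and background were handled. Over all alternatives tried, 3 to 11 probes were called, while the calls among all probes ran from 388 to 10639. The share of all probes in each setting is not given here, so the counts below do not set the 12 probes against the array. The setting with the lowest count is not among those whose counts are given. When scan day entered as a random block, an alternative added later, 6 of 12 probes were called, and EIF2AK2 came to an adjusted p of 0.0642 and MX1 to 0.0504. With the normexp correction 5 were called, and the lead probes of EIF2AK2, OAS2 and MX1 were higher by 1.61, 0.93 and 0.94 with adjusted p of 0.0984, 0.120 and 0.284. That correction moved the median of all probes to 0.39, and relative to it the 3 values were 1.22, 0.55 and 0.55. In the values deposited by the authors 6 were called, with EIF2AK2 at an adjusted p of 0.0122, MX1 at 0.0706 and OAS2 at 0.147. Of 16 measured markers of other cells 5 were called, where 172 of 609 named genes were, so that their share was near that of all genes. Of these 3 were higher (CD14 of monocytes by 1.01 ± 0.15, PECAM1 of endothelium by 0.92 ± 0.19 and TAGLN of smooth muscle by 0.84 ± 0.28) and 2 lower (ITGA2B of platelets at -0.84 ± 0.14 and LUM of stroma at -0.63 ± 0.20). The other 3 measured genes of the list of CD14, macrophages and dendritic cells, lay below 0. CD68 was at -0.23 ± 0.18, ITGAX at -0.61 ± 0.29 and LAPTM5 at -0.17 ± 0.14. The part of the marked cells in the difference was not tested.

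Within mares the differences of OAS2 and MX1 ran closely together. Over the 11 mares of both days their differences had Pearson r = 0.968 and Spearman rho = 0.955 (permutation p of 1e-05, the smallest that 100000 resamples can give, and 5e-05; adjusted over 6 gene pairs 6e-05 and 0.0003). Without the mares farthest from the median, mare 2 of day 12 and mare 4 of day 8, r was 0.954, and with the mean of each day removed it was 0.958. Over the 6 mares of day 12 alone r was 0.984 (exact permutation p = 0.00694, adjusted 0.0417) and rho was 0.829 (exact p = 0.0583, adjusted 0.350). Without mares 2 and 3 of that day r was 0.559 over the remaining 4, so within day 12 the relation rested on those mares. The 5 mares of day 8 were too few for a value of their own. Pairs of arrays share their scaling, which enters both genes alike. The 11 mares are counted by day, and the labels do not say whether they are 11 animals. Permutations over the 11 took them as independent and shuffled across both days, so their p-values may be too small if animals recur.

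The other 5 pairs of genes did not pass over the 11 mares. The correlation was r = 0.665 for EIF2AK2 and OAS2 (adjusted permutation p = 0.0738), 0.606 for EIF2AK2 and MX1 (adjusted p = 0.0911), 0.552 for IFI27 and OAS2, 0.528 for IFI27 and MX1 (adjusted p = 0.111 each) and 0.406 for IFI27 and EIF2AK2 (adjusted p = 0.212). IFI27 broke from OAS2 and MX1 in mare 2 of day 12, which had the largest OAS2 and MX1 differences of that day with a moderate one for IFI27 (0.42). It also did so in the day 8 mare numbered 2, which the labels do not tie to the former, with the largest IFI27 difference of day 8 (0.99) and small ones for OAS2 (0.10) and MX1 (0.06). EIF2AK2 broke from them in mare 6 of day 8 (-0.74, against -0.19 and 0.0068). These correlations were computed in 5 families of 6 pairs, the others being day means removed, day 12 alone and the levels in the control and in the pregnant arrays of day 12. In the levels none of the 6 pairs passed in either family, with r from 0.547 to 0.938 in the controls and from 0.290 to 0.742 in the pregnant arrays.

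**Figure D4:**
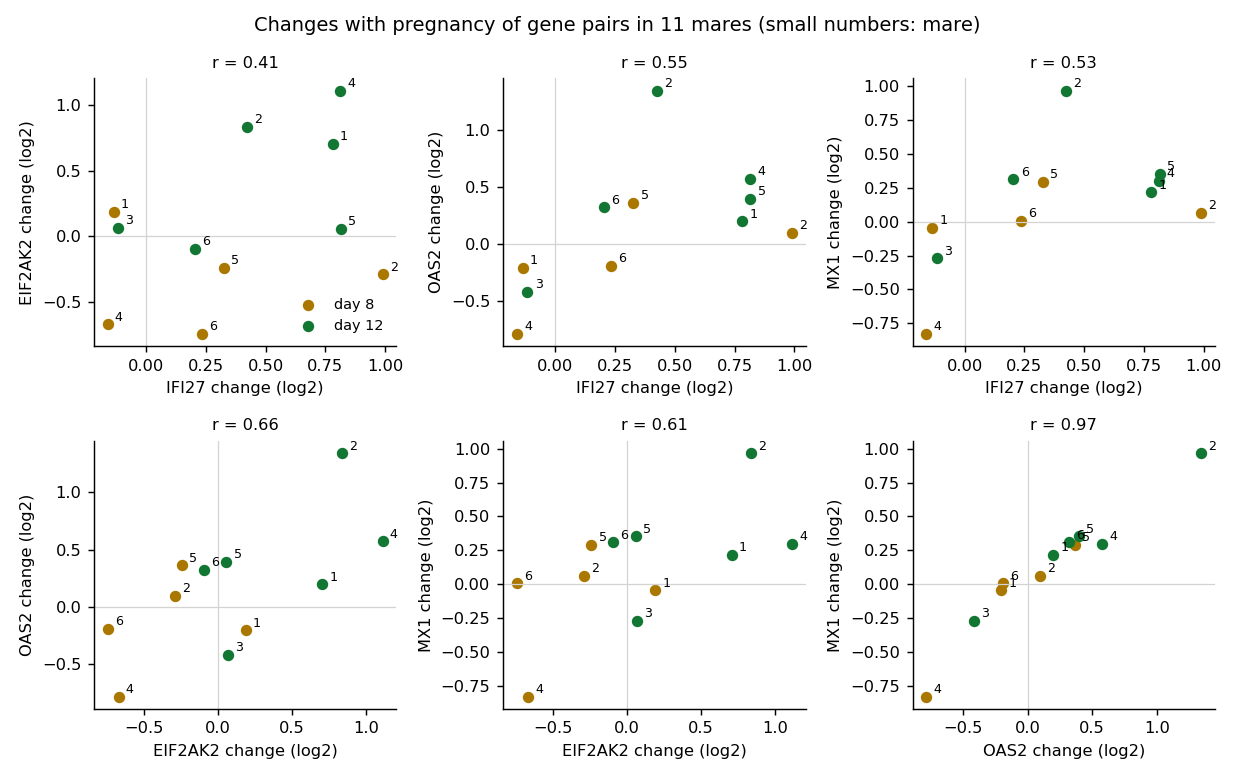
Pregnant minus control difference (log2) of each pair of genes in the 11 mares, counted by day, day 8 in ochre and day 12 in green, numbered by mare, with Pearson's r above each panel. OAS2 and MX1 lie close to a line (r = 0.97), and the 5 other panels scatter more widely (r from 0.41 to 0.66).

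Repeat readings of one gene followed each other more closely for OAS2 and MX1 than for EIF2AK2. Over the 11 mares r was between 0.912 and 0.997 for the 15 pairs of OAS2 probes, 0.981 for the 2 MX1 probes (over the mares in which both were read) and between 0.723 and 0.963 for the 3 EIF2AK2 probes. With the mean of a gene's probes in place of its lead probe, EIF2AK2 and OAS2 came to r = 0.756 (adjusted permutation p = 0.0235). The dimmest probe of EIF2AK2 had a mean level of -4.53 in the pregnant arrays of day 12, its highest, and -5.67 in those of day 8, its lowest. Its raw intensity fell to 8.06 in a control array of day 12. This is the probe with the smallest adjusted p at day 12 (0.203).

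The wider pathway was described from a list of 129 genes of interferon signalling, of which 24 could be named on the array and 23 were measured. At day 12, 17 of 23 had an estimate above 0 with a median of 0.15, 0 passed and 3 had an unadjusted p under 0.05, beside 45.9% of all probes above 0 and 12.5% at that p. Of the 19 besides the 4 genes, 13 were above 0 with a median of 0.11. At day 8, 15 of 23 were below 0 with a median of -0.07, again 0 passed and 2 had an unadjusted p under 0.05, beside 47.5% of all probes above 0 and 5.83% at that p. The ligands were at or below 0 at day 12 apart from interferon gamma: IFNA1 stood at -0.05 ± 0.24, IFND1 at -0.15 ± 0.09, IFND2 at -0.08 ± 0.07 and IFNG at 0.25 ± 0.27. At day 8 these 4 lay between 0.04 and 0.08. IFNA1 was well above background on 10 of 22 arrays and IFNG on 11, so their values are uncertain.

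Of the signalling genes, JAK2, a kinase bound to the interferon gamma receptor, was at 0.33 ± 0.15 at day 12 (SE, adjusted p = 0.390) and higher in 5 of 6 mares. SOCS3, a feedback inhibitor of JAK kinases, was at 0.20 ± 0.39. At day 8 they were at -0.10 ± 0.16 and 0.05 ± 0.43. Among sensors, TLR3, which binds double-stranded RNA, was at 0.26 ± 0.13 at day 12. TLR8, a receptor for single-stranded RNA, was at -0.02 ± 0.16 at day 12 and at -0.50 ± 0.18 at day 8, lower in all 5 mares of day 8 (adjusted p = 0.833), as were 4.25% of all probes. TLR9, which binds DNA, was at 0.05 ± 0.13 at day 12 and -0.33 ± 0.14 at day 8, and TLR7 stood near 0 beside its error on both days (-0.12 ± 0.14 and -0.14 ± 0.15).

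Of the 10 measured effectors 9 were above 0 at day 12 and 8 below 0 at day 8. Over all probes 45.9% were above 0 at day 12 and 47.5% at day 8. The 10 include the 4 genes themselves: all 4 are among the 9, and EIF2AK2, OAS2 and MX1 are among the 8. CXCL10, a chemokine that draws activated T cells, had the largest estimate outside the 4 genes, 0.39 ± 0.27 at day 12, higher in 6 of 6 mares (adjusted p = 0.599), and -0.57 ± 0.30 at day 8, lower in 4 of 5 (adjusted p = 0.848). Being higher in all 6 mares held for 2.25% of all probes. The difference of its effects was 0.96 ± 0.40 (adjusted p = 0.445). CXCL9, a chemokine with the same receptor, stood at 0.09 ± 0.15 and -0.35 ± 0.17. Of the antigen processing genes, B2M, the light chain of MHC class I, stood at 0.04 ± 0.16 and 0.06 ± 0.17, and CD74 at 0.25 ± 0.19 and -0.33 ± 0.21.

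The relatives of OAS2 had smaller estimates at day 12 than its 0.40 ± 0.19, and the difference between the genes was not tested. OAS1 was at 0.12 ± 0.15 at day 12, OAS3 at 0.11 ± 0.07 and the OAS-like gene OASL at -0.18 ± 0.09. Between the pregnant arrays OAS2 was higher at day 12 while OAS3 was lower at -0.97 ± 0.23 (adjusted p = 0.0128) and OASL lower at -0.64 ± 0.17 (adjusted p = 0.0192), and OAS1 was at 0.43 ± 0.18 (adjusted p = 0.104). OAS3 was lower in the control arrays of day 12 as well, at -1.13 ± 0.23 (adjusted p = 0.0190). The reading of a family on an array depends on how well a probe separates near-identical copies, which could not be checked without probe sequences.

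**Figure D5:**
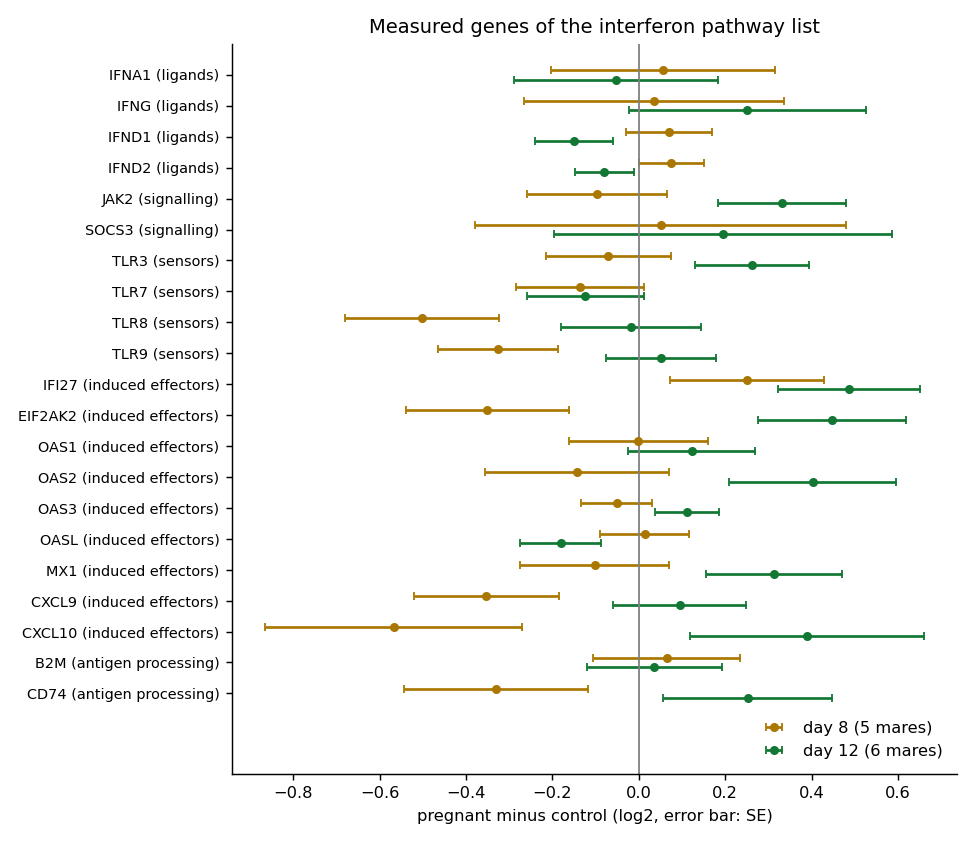
Pregnant minus control difference (log2, with SE) of measured interferon pathway genes at day 8 (ochre) and day 12 (green), ordered by role. IFI27, EIF2AK2 and OAS2 have the 3 highest values at day 12, CXCL10 follows with 0.39, and CXCL10 has the lowest value at day 8, -0.57; no value shown passed the test.

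Between the pregnant arrays of the days 9 of the 23 pathway genes were called, 6 higher at day 12 and 3 lower, where 24.3% of all probes and 172 of 609 named genes were called. Beside EIF2AK2, OAS2 and MX1 the higher ones were IFNG (0.91 ± 0.20, adjusted p = 0.00792), CXCL10 (0.59 ± 0.20, adjusted p = 0.0475) and CD74, the MHC class II chaperone (0.55 ± 0.16, adjusted p = 0.0312). IFNG was well above background on 1 of 5 pregnant arrays of day 8 and 5 of 6 of day 12, so its size is uncertain. The lower ones were OAS3, OASL and the interferon delta gene IFND2 (-1.25 ± 0.25, adjusted p = 0.00534). In the control arrays, where 7.09% of all probes were called, 0 were called higher and 2 lower, OAS3 and IFND2 (-1.10 ± 0.25, adjusted p = 0.0283). The median of the 23 was 0.20 in the pregnant and -0.14 in the control arrays, beside -0.03 and -0.01 over all probes. For the 19 besides the 4 genes the medians were 0.05 and -0.21. Of these 19, 3 were called higher and 3 lower in the pregnant arrays.

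Among 596 named genes, those whose differences over the 11 mares were most like the mean of the 4 genes included CD44, the hyaluronan receptor (r = 0.891), PYGL, liver-type glycogen phosphorylase (r = 0.877), PRICKLE1, a planar cell polarity protein (r = 0.865), and TRIM8, a ubiquitin ligase (r = 0.861). With the mean of each day removed the values were 0.83, 0.82, 0.80 and 0.88. The median over the 596 genes was 0.03, and 30 exceeded 0.7. Of the pathway list CD74 (r = 0.836) and CXCL10 (r = 0.827) also ran with the 4 genes, and IFND2 ran against them (r = -0.868). Lower values were found for other induced genes of the list: CXCL9 at 0.695, OAS1 at 0.624, OAS3 at 0.340, B2M at 0.285 and OASL at -0.415. These values describe 11 mares, counted by day, whose 2 arrays enter every gene, and they carry no test.

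Markers of cells that could carry interferon-induced transcripts into the biopsy were followed beside the 4 genes. Of 90 listed markers 16 were measured, and none of B cells or of neutrophils and eosinophils was among them. At day 12, 0 of the 16 passed, 4 had an unadjusted p under 0.05 (12.5% of all probes did), 12 were above 0 (45.9% of all probes were), and the median was 0.09. The 4 were TAGLN of smooth muscle at 0.90 ± 0.23 (adjusted p = 0.139), higher in 6 of 6 mares, CD14 of monocytes at 0.51 ± 0.16 (adjusted p = 0.214), higher in 5 of 6, PECAM1 of endothelium at 0.44 ± 0.16 (adjusted p = 0.305), higher in 4 of 6, and ITGA2B of platelets at -0.29 ± 0.08 (adjusted p = 0.158), lower in 6 of 6. The estimates of TAGLN and CD14 were above those of all 4 lead probes at day 12. The 4 lymphocyte genes measured, CD2, CD28, GZMB and GNLY, had a median of 0.04, with their summed log2 level between 1.15 and 4.31 in the pregnant and between 2.13 and 4.18 in the control arrays. CD28 was well above background on only 2 of 6 pregnant and 1 of 6 control arrays of day 12, so its value is uncertain. The 4 of macrophages and dendritic cells, CD14, CD68, ITGAX and LAPTM5, had a median of 0.12, with summed levels of 3.24 to 3.62 and 2.80 to 3.58, and CD14 stood highest of them. At day 8 the medians were 0.11 and -0.02. The part of these cells in the values of the 4 genes was not tested. The trophoblast list was represented by PAG and CGA, whose summed level lay between -4.75 and -3.63 in the pregnant arrays of day 12 and between -4.97 and -3.83 in the controls.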

How the data were processed

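The scanner images were turned into spot intensities with Agilent Feature Extraction. The submitters' processing notes give version 10.5.1.1, which the day 12 files carry, while 10.7.3.1 stands in the day 8 files, per the file headers. The deposited processed intensity is background-subtracted and detrended, and is not scaled between arrays, per the file headers. Other columns used were the deposited flags for outlier and well above background spots, of which 3 to 152 per array were outliers. The authors' deposited value table was read as log2 because its columns rose with the log2 scanner intensity (r of 0.986 to 0.997); its column medians ran from 7.47 to 8.84, and its scaling is not given in the sources used here.

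From the intensities, log2 values minus the 75th percentile of each array were computed, outlier spots were left out and spots of a probe averaged. Probes well above background on at least 5 of 22 arrays were tested with limma 3.58.1 in R 4.3.3, two-sided, with Benjamini-Hochberg adjustment over all probes and a threshold of 0.05. The pregnancy effects were fitted over all 22 arrays with each mare of a day as a block, and the days compared over the 11 arrays of 1 kind without a block. Arrays of 1 mare deviated together, with correlations of 0.289 to 0.725 at day 12 and 0.321 to 0.817 at day 8. For the second MX1 probe mare 5 of day 12 and mare 2 of day 8 drop out. The lead probe of a gene has the highest mean level. Permutations used scipy 1.17.1. The fit was tested on simulated data. Array annotation was named through RefSeq accessions: 1394 probes had 1 gene symbol, 1 had several and the rest none. The EIF2AK2 probes carry that name only in the newer of the 2 annotation versions among the arrays.

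The 4 genes and all lists were chosen with earlier results of these data known. The text names every probe of the 4 genes, the measured pathway genes, and the genes among the 5 most like the mean of the 4; some of these genes are not reported here, though the counts include them. Arrays of a day come from separately numbered mares, and their number limits the precision.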

Additional observations from a re-analysis of the deposited data

Results flagged for a closer look

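Of 24 groups of lead probe values, the levels in each of the 4 groups of arrays and the pregnant minus control differences of each day, 2 groups of levels held an array far from the others, where chance gives about 1 in 20 groups. In the pregnant arrays of day 8, IFI27 of mare 4 stood at 2.93, with a gap to the next array of 0.788 of the group's range. EIF2AK2 of mare 1 stood at -1.88 in the same group, with a gap of 0.761 of the range.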

How the results depend on the processing

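No alternative changed the count of 0 called probes for either pregnancy effect or their difference. Without a replicate block, which ignores the pairing within mares, the day 12 difference of IFI27 was 0.49 with an adjusted p of 1.00. With the mare number as a replicate block over the numbers both days share, 8 of 12 probes were called between the pregnant arrays; the labels do not make those numbers a pairing, and same-numbered mares of the 2 days correlated between -0.15 and 0.33 in the controls. Calls between the pregnant arrays numbered 5 with normexp, 6 in the authors' value table, 6 with scan day as a random block and 9 to 11 with 1 mare left out. Over all alternatives they ran from 3 to 11, while the calls among all probes ran from 388 to 10639. Between the control arrays 2 were called without slide 4, which was left out after seeing its levels. The day 12 median of the 19 other pathway genes moved to 0.56 with normexp, which is 0.22 above all probes.

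Values that changed sign, with no cause tested, were IFI27 between control arrays (0.12 with quantile normalisation, 0.074 in the value table, 0.0065 with slide as a random block, 0.16 without slide 4, and -0.25 to 0.12 with 1 mare left out), IFI27 between pregnant arrays (-0.059 with normexp, -0.081 to 0.34 with 1 mare left out), IFI27 in the difference of effects (-0.028 with normexp), the lead probes of OAS2 and MX1 at day 8 (-0.27 to 0.017 and -0.20 to 0.079 with 1 mare left out), and under normexp r of IFI27 with EIF2AK2 (-0.17) and of EIF2AK2 with MX1 (-0.027). Normexp moved r of OAS2 and MX1 to 0.760 (adjusted permutation p = 0.0437). It used the median spot signal, in place of the planned mean signal. With 1 mare left out, the day 12 differences ran from 0.42 to 0.61 for IFI27, 0.31 to 0.56 for EIF2AK2, 0.21 to 0.57 for OAS2 and 0.18 to 0.43 for MX1. Over all probes 102 were called at day 12 and 31 to 977 with 1 mare left out. The planned search for interferon motifs in promoters was not run, because no promoter sequence was used here.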
